A study of Mus musculus with 8 samples.

Results

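The AP-1 family of transcription factors was followed in cultures of mouse bone marrow cells that were turned into macrophages or osteoclasts. Its members were the genes Fos, Fosb, Fosl1, Fosl2, Jun, Junb, Jund, Jdp2, Atf3 and Batf3, 10 of the 19505 genes with a single symbol on the arrays, and each was read from its 1 transcript cluster, the probe set of a gene. The cells came from C57BL6/J mice and were profiled on 8 Affymetrix arrays, 1 for each of 4 cultures on days 6 and 3 of treatment. The PSS1-LMS and PSS1-WT cultures received M-CSF (50 ng/ml) with RANKL (100 ng/ml) and, a day later, a retrovirus that carried mutant or wild-type PSS1. The M-CSF+RANKL culture received the same doses of both factors, and the M-CSF culture M-CSF alone. PSS1, the product of Ptdss1, makes the membrane lipid phosphatidylserine. The labels give no age, sex or number of mice, do not say what mutation PSS1-LMS carries, and do not say whether the other cultures received an empty vector, so the retrovirus and PSS1 cannot be told apart in any comparison with M-CSF+RANKL.

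AP-1 factors carry a basic leucine zipper, through which Fos and Jun proteins pair and bind DNA. RANKL, the cytokine that drives bone marrow precursors to become bone-resorbing osteoclasts, acts through RANK, TRAF6 and MAP kinases on AP-1, and mice without Fos form no osteoclasts and have dense bones. Together with NFATc1, whose gene Fos helps to induce, AP-1 turns on osteoclast genes such as Acp5 and Ctsk. M-CSF keeps the precursors alive and on its own leads them to macrophages.

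The stretch just before the start of 5 members is shown because these genes had the largest differences between the cultures or, for Jun, between days. The sequences are the 250 bases before each gene's start in RefSeq on GRCm38.p6, 5′ to 3′ on the gene's strand. RefSeq promoters were found for 9 of the 10 members; for Jdp2, which has 3 listed starts, the second is printed, the single one of the 3 that held a match. Capitals mark matches to TGACNTCA, which covers the cyclic AMP response element (CRE) and the AP-1 site of the Jun promoter, to TGACG, the core of the CRE, or to the TATA box TATAAA.
Fos promoter, chr12:85473640-85473889, plus strand: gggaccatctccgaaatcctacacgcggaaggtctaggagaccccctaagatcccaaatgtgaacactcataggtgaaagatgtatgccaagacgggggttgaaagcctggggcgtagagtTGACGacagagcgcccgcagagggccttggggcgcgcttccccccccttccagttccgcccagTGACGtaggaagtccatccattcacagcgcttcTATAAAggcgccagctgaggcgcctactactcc
Jdp2 promoter, chr12:85599166-85599415, plus strand: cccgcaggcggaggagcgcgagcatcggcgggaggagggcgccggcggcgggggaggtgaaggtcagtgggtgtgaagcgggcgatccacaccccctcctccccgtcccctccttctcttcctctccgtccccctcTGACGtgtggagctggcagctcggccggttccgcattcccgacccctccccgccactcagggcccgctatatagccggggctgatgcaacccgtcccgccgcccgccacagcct
Fosl2 promoter, chr5:32136222-32136471, plus strand: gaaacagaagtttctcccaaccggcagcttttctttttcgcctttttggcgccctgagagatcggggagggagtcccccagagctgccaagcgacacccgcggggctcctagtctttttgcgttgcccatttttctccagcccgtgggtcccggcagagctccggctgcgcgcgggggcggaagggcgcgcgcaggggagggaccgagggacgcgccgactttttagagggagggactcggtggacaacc
Jun promoter, chr4:95052223-95052472, minus strand: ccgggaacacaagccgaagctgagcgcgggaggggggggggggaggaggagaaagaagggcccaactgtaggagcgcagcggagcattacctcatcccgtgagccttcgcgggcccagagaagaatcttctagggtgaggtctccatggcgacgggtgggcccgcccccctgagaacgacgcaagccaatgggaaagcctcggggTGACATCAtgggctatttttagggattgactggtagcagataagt
Atf3 promoter, chr1:191183334-191183583, minus strand: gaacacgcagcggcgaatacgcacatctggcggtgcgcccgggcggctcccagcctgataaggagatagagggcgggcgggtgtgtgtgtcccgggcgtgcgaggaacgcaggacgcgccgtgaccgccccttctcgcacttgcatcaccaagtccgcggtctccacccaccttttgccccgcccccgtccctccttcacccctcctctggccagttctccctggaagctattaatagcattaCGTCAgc

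No match to TGANTCA, a pattern that covers the classical AP-1 site (TRE) but is wider than it, lay in the windows of the 9 members. Over all 32851 RefSeq promoters, 6.75% of windows of the same length held one. TGACNTCA was found in Jun, at bases -45 to -38 from its start, and in 7.49% of all promoters. TGACG was found in Fos, Fosb, Junb, Atf3 and 1 of the 3 windows of Jdp2, and in 17.8% of all promoters. Fos held it at bases -129 to -125 and at -66 to -62, Jdp2 at -114 to -110, and Atf3 at -7 to -3 on the opposite strand, where the printed letters read CGTCA. The Fosl2 window held no match to any of these motifs. TATAAA was found in Fos, at -33 to -28, and in 12.4% of all promoters. Both strands were searched, TGACG can lie within TGACNTCA, and the letters searched were settled after the sequences had been read. A match describes letters in these windows and is not evidence of a bound site.

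The cultures carried the markers of their labels. All 8 osteoclast markers were over the brightest background probe set on each of the 6 arrays with RANKL, and none was on either M-CSF array. All 9 macrophage markers on the array were over it on both M-CSF arrays and 7 of 9 on all arrays with RANKL of either day. Their summed signal (log2) was 16.56 to 16.91 with RANKL, against 18.41 to 20.06 in M-CSF. With RANKL this sum was mostly Csf1r, at 16.37 to 16.75, against 17.56 and 16.98 in M-CSF on days 6 and 3. The median of the 9 markers was 6.94 to 9.29 with RANKL, against 14.02 to 16.21 in M-CSF. The 4 B cell and 6 stromal and osteoblast markers lay within background throughout. Neutrophil markers, 6 of 7 listed, differed by day in every culture: their summed signal was 7.09 to 7.50 on day 6 and 14.10 to 14.67 on day 3, and S100a8, S100a9, Mpo and Elane were within background on all 4 arrays of day 6. Monocyte and early precursor markers had sums of 5.88 to 6.96 on day 6 and 9.13 to 9.50 on day 3 with RANKL, against 10.14 on day 6 and 12.17 on day 3 in M-CSF. Ly6c2 went the other way on day 3, at 8.81 to 9.14 with RANKL, against 8.64 in M-CSF. On day 6 in M-CSF, F13a1 alone of this list was over background. Among mast cell, basophil and megakaryocyte markers, Pf4 alone differed between the cultures, at 6.00 to 7.61 with RANKL, against 14.81 and 15.03 in M-CSF. Cpa3, Mcpt8 and Fcer1a were within background on all arrays, and Itga2b was at 5.99 to 6.81 with RANKL, against 6.11 and 6.37 in M-CSF. Ptdss1, which reports the transgene, had log2 signals of 17.50 and 18.79 with PSS1-LMS and 18.06 and 18.91 with PSS1-WT on days 6 and 3, against 10.36 and 9.56 in M-CSF+RANKL. Because RNA was taken from whole cultures, fewer cells of a type and less RNA per cell cannot be told apart.

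**Figure D1:**
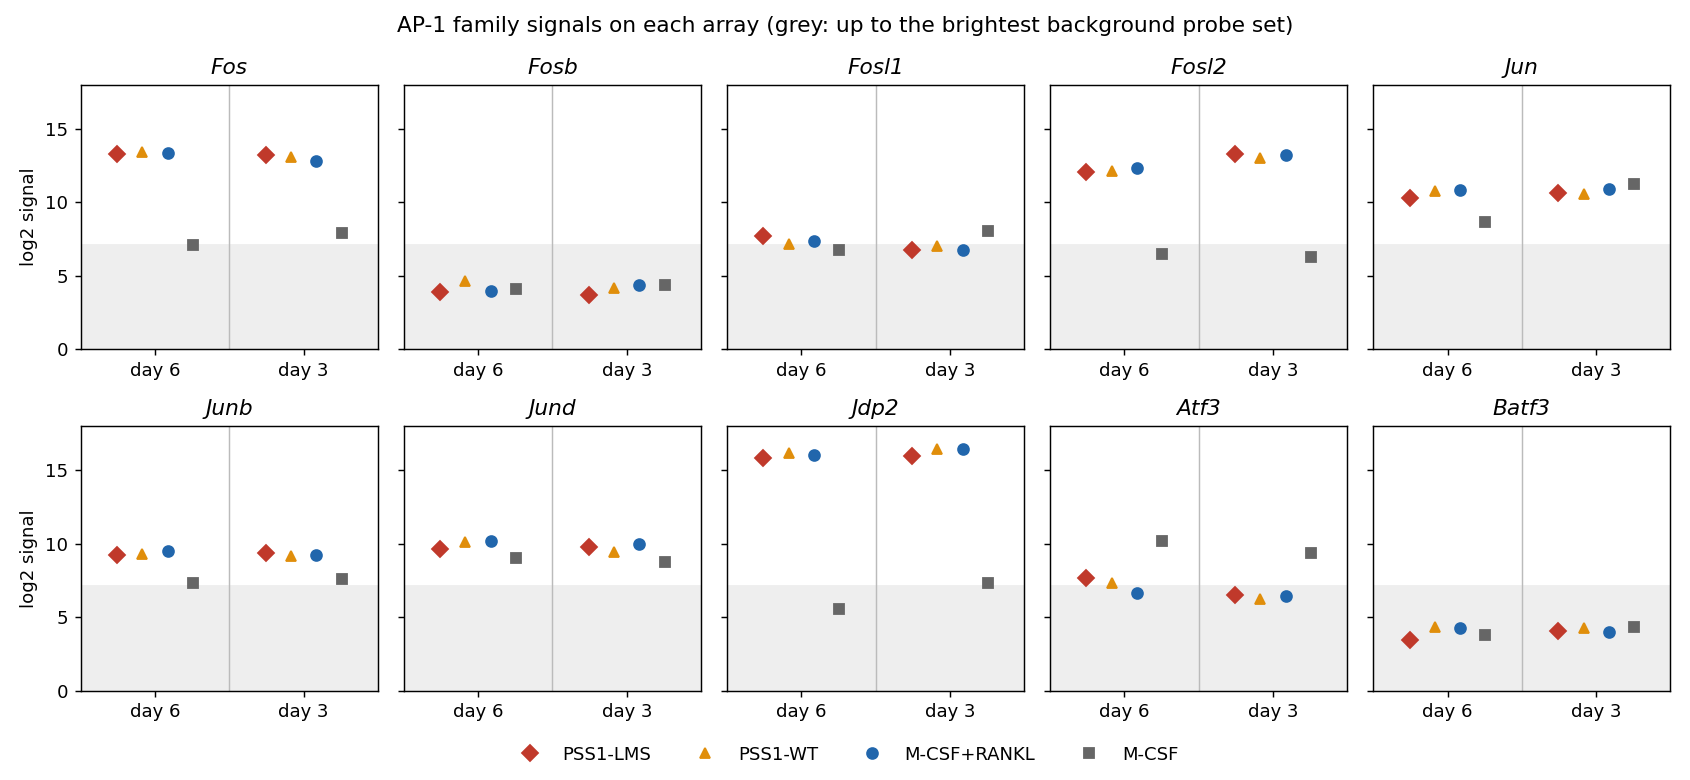
Log2 signal (vertical axis) of each AP-1 gene on the 8 arrays, by day and culture, 1 point per array; the grey band ends at 7.13, the highest value of any background probe set. Fos, Fosl2 and Jdp2 separate the arrays with RANKL from those with M-CSF alone by the widest gaps, and Fosb and Batf3 lie in the band throughout.

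With RANKL, 5 AP-1 genes were higher and 1 was lower. Jdp2, Fosl2 and Fos were at least 519.5-fold, 66.6-fold and 46.9-fold higher in M-CSF+RANKL than in M-CSF, Junb was 3.75-fold and Jund 2.29-fold higher, and Atf3 was 9.36-fold lower. Jun and Fosl1 did not pass the test, and Fosb and Batf3 were within background on every array. Folds given as "at least" were computed with a low signal raised to the brightest background probe set of its own array, which lay between 5.54 and 7.13. With 7.13, the highest of these, as the floor on every array, the log2 differences were 9.02 for Jdp2, 5.64 for Fosl2, 5.55 for Fos and -2.65 for Atf3. The M-CSF+RANKL signals of Atf3 lay over the background of their own arrays but under 7.13. Each test compared the difference averaged over both days with how much culture differences changed between days, by limma over 10871 measured genes with Benjamini-Hochberg adjustment and a threshold of 0.05.

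A total of 6 of 8 measured members passed, against a background of 26.4% of all measured genes. The 5 that were higher stand beside 14.1% of all genes and the 1 that was lower beside 12.4%. The median log2 difference was 1.55 over the 8 members and 0.03 over all measured genes. All 8 exceeded the filter on low values, a log2 signal of 4.86 on at least 1 array, on each of the 8 arrays, the lowest value being 5.55 for Jdp2. The 6 arrays with RANKL and the 2 M-CSF arrays did not overlap for 6 of the 8, 5 of them higher with RANKL and 1 lower. Over all measured genes 43.0% did not overlap, 22.2% higher and 20.8% lower.

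Fos itself, the partner of Jun proteins without which mouse osteoclasts do not form, had log2 signals on day 6 of 13.28 with PSS1-LMS, 13.44 with PSS1-WT and 13.35 with M-CSF+RANKL, against 7.08 with M-CSF. On day 3 the values were 13.20, 13.10 and 12.83 in these cultures with RANKL, against 7.95 with M-CSF. All 6 arrays with RANKL were high, between 12.83 and 13.44, and both M-CSF arrays were low, the one of day 6 within background. The difference between M-CSF+RANKL and M-CSF was 5.57 ± 0.39 (SE, adjusted p = 4.9e-05).

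Fosl2, which encodes the Fos-related protein Fra-2, a regulator of osteoclast size and survival in mice, had signals on day 6 of 12.05 with PSS1-LMS, 12.14 with PSS1-WT and 12.31 with M-CSF+RANKL, against 6.50 with M-CSF. On day 3 it had 13.31, 13.05 and 13.22 in the same cultures with RANKL, against 6.29 with M-CSF. Both M-CSF values lay within background, and the 3 arrays with RANKL of day 6 were all below those of day 3. The RANKL difference was 6.37 ± 0.39 (SE, adjusted p = 3.36e-05).

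Fosl1 encodes Fra-1, which can stand in for Fos in osteoclast formation in mice. Its signal on day 6 was 7.69 with PSS1-LMS, 7.19 with PSS1-WT and 7.37 with M-CSF+RANKL, against 6.75 with M-CSF. On day 3 it was 6.74, 7.04 and 6.80, against 8.05 with M-CSF. The cultures with RANKL were thus above M-CSF on day 6 and below it on day 3, and the average difference of -0.32 ± 0.51 did not pass (SE, adjusted p = 0.704). Without the M-CSF array of day 6 the difference was -1.25, and without that of day 3 it was 0.61. Each of these fits rests on a single M-CSF array, so its error holds no change of the RANKL difference between days. Fosb, an immediate early partner of Jun proteins, ranged from 3.70 to 4.65 on the arrays with RANKL and from 4.13 to 4.36 on those with M-CSF, and no fold is given for it.

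Jun, the classical partner of Fos, had signals on day 6 of 10.29 with PSS1-LMS, 10.77 with PSS1-WT and 10.87 with M-CSF+RANKL, against 8.64 with M-CSF. On day 3 it had 10.66, 10.59 and 10.90, against 11.27 with M-CSF. The M-CSF arrays thus held both the highest and the lowest Jun value of the 8, and the groups overlapped. The average RANKL difference of 0.93 ± 0.63 did not pass (SE, adjusted p = 0.335 by limma). It was 2.20 without the M-CSF array of day 3 and -0.35 without that of day 6, and each of these fits rests on a single M-CSF array.

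Junb, a Jun protein with weaker transactivation than Jun, had signals on day 6 of 9.22, 9.29 and 9.54 with PSS1-LMS, PSS1-WT and M-CSF+RANKL, against 7.31 with M-CSF. On day 3 these were 9.40, 9.14 and 9.21, against 7.62. The groups did not overlap, and the RANKL difference was 1.91 ± 0.30 (SE, adjusted p = 0.00291). It did not pass once the day 6 array of M-CSF+RANKL was left out (1.69, adjusted p = 0.0569).

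Jund, the Jun gene that many resting cells express steadily, had signals on day 6 of 9.61, 10.13 and 10.19 in the same order of cultures with RANKL, against 9.02 with M-CSF. On day 3 these were 9.81, 9.47 and 9.99, against 8.76. The groups did not overlap, the lowest array with RANKL being at 9.47 and the highest M-CSF array at 9.02. The RANKL difference of 1.20 ± 0.32 passed narrowly (SE, adjusted p = 0.0264). The difference stayed between 1.18 and 1.21 but did not pass with the 4 M-CSF and M-CSF+RANKL arrays alone (adjusted p = 0.0932 by limma). It also did not pass when the M-CSF+RANKL array of day 6 or day 3 was left out. With low signals raised to the brightest background it did not pass either (0.0774). All Jund signals lay over that level, so raising left them unchanged.

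Jdp2 encodes a partner of Jun that restrains transcription at AP-1 sites and is needed for normal osteoclast formation in mice. It had the widest range of the 10 genes. On day 6 its signal was 15.86 with PSS1-LMS, 16.17 with PSS1-WT and 16.02 with M-CSF+RANKL, against 5.55 with M-CSF, a value within background. On day 3 it was 15.98, 16.46 and 16.47, against 7.32 with M-CSF. The RANKL difference was 9.81 ± 0.43 (SE, adjusted p = 9.09e-06). In RefSeq's order of protein-coding genes Jdp2 lies between Fos and Batf, which encodes another basic leucine zipper protein. Batf ranged from 4.53 to 5.32 with RANKL and from 4.87 to 5.64 with M-CSF and was within background on all 8 arrays.

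Atf3, a stress-induced factor that often represses its targets and restrains inflammatory genes in macrophages, was the single member lower with RANKL. Its signal on day 6 was 7.67 with PSS1-LMS, 7.34 with PSS1-WT and 6.67 with M-CSF+RANKL, against 10.18 with M-CSF. On day 3 it was 6.52, 6.27 and 6.44, against 9.38. The groups did not overlap, and the RANKL difference was -3.23 ± 0.33 (SE, adjusted p = 0.000331). Batf3, which is needed for a class of dendritic cells in mice, ranged from 3.48 to 4.31 with RANKL and from 3.77 to 4.30 with M-CSF and was within background on each array.

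**Figure D2:**
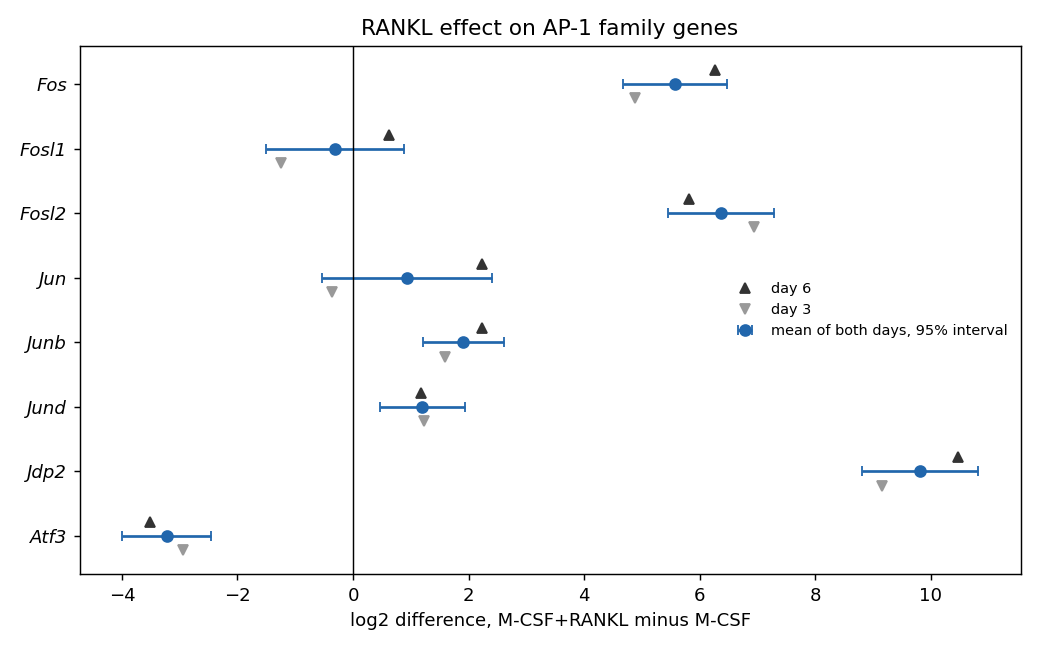
Log2 difference of M-CSF+RANKL minus M-CSF (horizontal axis) for the 8 measured AP-1 genes; circles are the mean of both days with its 95% limma interval, and triangles are the single-day differences, which rest on 1 array per side. The intervals of Fosl1 (-1.51 to 0.88) and Jun (-0.54 to 2.40) span 0, and their days lie on opposite sides of it.

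When all 6 arrays with RANKL were set against the 2 M-CSF arrays as an alternative, the same 6 members passed. Fos differed by 5.68, Fosl2 by 6.28, Jdp2 by 9.73, Junb by 1.83 and Jund by 0.97, and Atf3 by -2.96. Jun (0.73, adjusted p = 0.242) and Fosl1 (-0.26, adjusted p = 0.611) again did not pass. The osteoclast, macrophage and monocyte markers given above also differed between cultures with RANKL and M-CSF, and their part in these differences was not tested.

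Genes around AP-1 were described by lists chosen with earlier results of these data known; members named beyond the 4 with the largest differences were chosen after their values were seen. Of 16 measured other leucine zipper factors, 4 fell with RANKL and 1 rose (median difference -0.55). Over all measured genes 26.4% passed in this comparison, 14.1% higher and 12.4% lower, and each list count stands beside these shares. Maf, a macrophage factor, was at least 149.6-fold lower (-7.93 ± 0.51, adjusted p = 3.74e-05). Cebpa, which directs myeloid development, fell 17.3-fold (-4.11), Cebpd fell at least 2.66-fold (-1.48), and Bach1, a repressor of heme-response genes, fell 2.54-fold (-1.35). Atf4, the factor of the amino acid and stress response, rose 4.03-fold (2.01, adjusted p = 0.00268).

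Of 18 measured genes listed as signalling genes around RANK and AP-1, 5 rose and 5 fell, with a median of -0.07. Over all measured genes 14.1% rose and 12.4% fell. The receptor gene Tnfrsf11a, which encodes RANK, rose 5.13-fold (2.36 ± 0.32, adjusted p = 0.00129), the adaptor Traf6 rose 2.58-fold, and the kinase genes Map2k3, Map2k2 and Mapk8, the last for JNK1, rose 3.77-fold, 2.88-fold and at least 1.75-fold. The genes of p38 alpha (Mapk14), JNK2 (Mapk9), RSK2 (Rps6ka3) and NIK (Map3k14) fell, with log2 differences of -2.01, -1.30, -2.40 and -1.40. Map3k8 also fell, but was over background on 1 of 8 arrays, which allows a fold of at least 1.70. Of 8 phosphatases that switch MAP kinases off, Dusp4 rose at least 7.07-fold (3.26), Dusp6 fell 5.54-fold (-2.47) and Dusp7 fell 2.47-fold (-1.30), and 5 did not pass. Of 13 immediate early genes and their regulators none rose and 3 fell: Ier3 (at least 6.71-fold, -3.49), Klf6 (3.46-fold, -1.79) and the ternary complex factor Elk3 (2.23-fold, -1.16).

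Of 13 measured osteoclast genes known to be under AP-1 or NFATc1 control, 12 rose and none fell (median 10.69). Over all measured genes 14.1% rose and 12.4% fell. Mmp9, Calcr, Oscar and Ocstamp passed the filter on low values through arrays with RANKL alone. Their M-CSF signals on days 6 and 3 were 4.84 and 3.93, 3.71 and 3.85, 2.71 and 2.71, and 2.82 and 2.43. These genes could enter the count only by being high with RANKL, and the list was chosen with earlier results known. The count is thus a description and cannot be weighed against these shares. The resorption genes Mmp9, Ctsk and Acp5 and the fusion gene Ocstamp were at least 7377-fold, 8996-fold, 9417-fold and 292.3-fold higher. All 4 were within background on both M-CSF arrays, and Acp5 and Ctsk, with means of 19.91 and 19.85 in M-CSF+RANKL, lay near the highest value in the data, so that these bounds give no order. Nfatc1 rose 31.6-fold, with signals of 13.71 and 14.61 in M-CSF+RANKL on days 6 and 3, against 10.09 and 8.27 in M-CSF. Plaur, the urokinase receptor gene, did not pass (-0.67, adjusted p = 0.435).

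**Figure D3:**
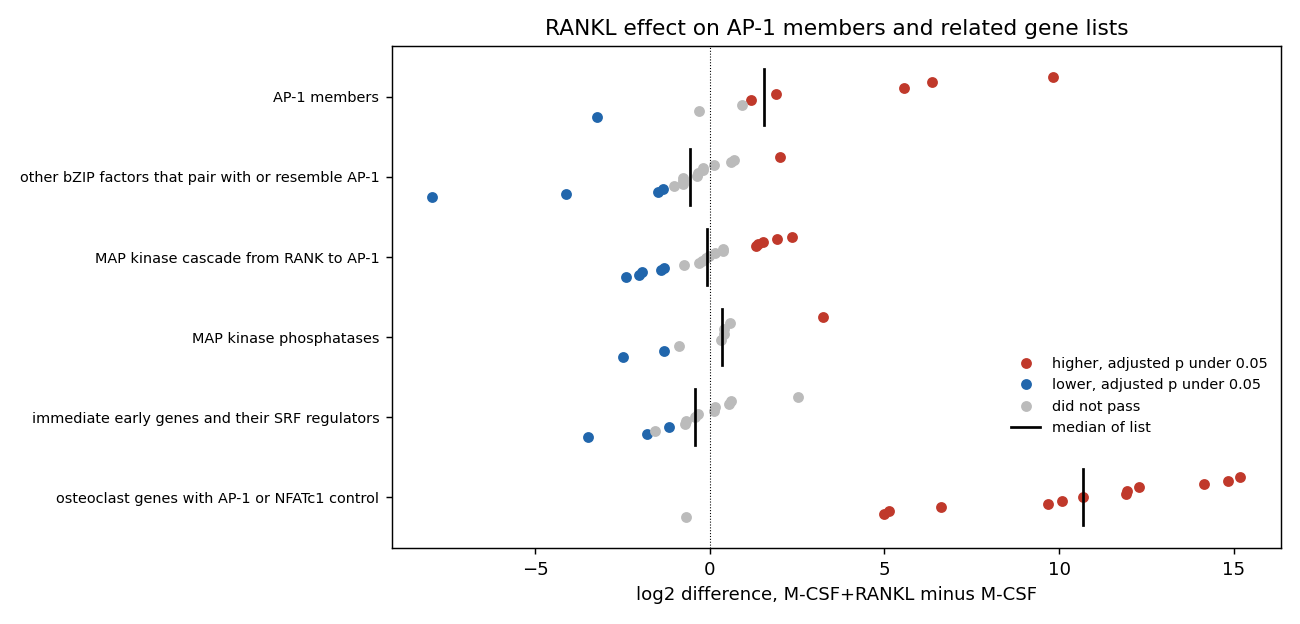
Log2 difference of M-CSF+RANKL minus M-CSF (horizontal axis) for the AP-1 genes and 5 related lists, 1 point per measured gene, coloured by the limma call; the bar is the median of the list. Osteoclast genes lie furthest to the right (median 10.69), and other leucine zipper factors have the lowest median (-0.55).

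The genes whose signals followed a member most closely over the 8 arrays were found by Pearson correlation, as a description that rests largely on the gap between 6 arrays with RANKL and 2 without. Dock5, a guanine nucleotide exchange factor, came first for both Fos (0.997) and Jdp2 (0.999). The closest to Fosl2 were Clybl, Lcp2 and Pex16 (all 0.998), to Junb Dtx4 (0.995), to Jund Mrpl17 (0.984) and to Atf3 Dock2 (0.993).

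No AP-1 gene passed the test for either form of PSS1. In the limma fit of the 6 arrays with RANKL, 0 of 8 measured members passed for PSS1-LMS, for PSS1-WT or between them, and 0 had an unadjusted p under 0.05 in any of these comparisons. Over all genes 0.175% passed for PSS1-LMS, 0.156% higher and 0.0184% lower, and 0.00920% for PSS1-WT, namely Ptdss1 alone. For PSS1-LMS against PSS1-WT 0% passed, and 773 genes had an unadjusted p under 0.05. The comparisons with M-CSF+RANKL share its 2 arrays. The median difference of the 8 members was -0.07, -0.06 and 0.03 in the 3 comparisons, and that of all genes -0.02, -0.06 and 0.04.

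Atf3 differed by 0.54 ± 0.28 between PSS1-LMS and M-CSF+RANKL (SE, adjusted p = 0.804), with a 95% interval of -0.05 to 1.13. Leaving out 1 array moved it to between 0.098 (without M-CSF+RANKL of day 6) and 0.98 (without M-CSF+RANKL of day 3), and with raised signals it was 0.27, none of which passed. By day the difference was 1.002 on day 6 and 0.08 on day 3. For PSS1-WT the Atf3 difference was 0.24 (-0.34 to 0.83), with 0.67 on day 6 and -0.18 on day 3.

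Jun, Jund and Jdp2 had lower values in PSS1-LMS, none past the test. Jun differed by -0.41 (-0.94 to 0.13) for PSS1-LMS and by -0.20 (-0.74 to 0.33) for PSS1-WT. Jund differed by -0.38 (-0.95 to 0.19) for PSS1-LMS and by -0.29 (-0.86 to 0.28) for PSS1-WT. The PSS1-LMS values depended on the PSS1-LMS arrays: without that of day 6 they were -0.18 for Jun and -0.063 for Jund, and without that of day 3 they were -0.63 and -0.70. Jdp2 differed by -0.32 (-0.85 to 0.20) for PSS1-LMS, by 0.07 (-0.45 to 0.60) for PSS1-WT and by -0.40 (-0.92 to 0.13) between the mutant and the wild type.

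For Fos the interval of the PSS1-LMS difference ran from -0.38 to 0.68 and that of PSS1-WT from -0.35 to 0.71. Over the 8 members and the 3 comparisons no interval reached beyond 1.13 upwards or -0.95 downwards, and these intervals describe arrays of 1 culture per condition. Nfatc1 likewise did not pass (-0.03 for PSS1-LMS and 0.08 for PSS1-WT), and 0 measured genes of the 5 related lists passed in any of the 3 comparisons.

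**Figure D4:**
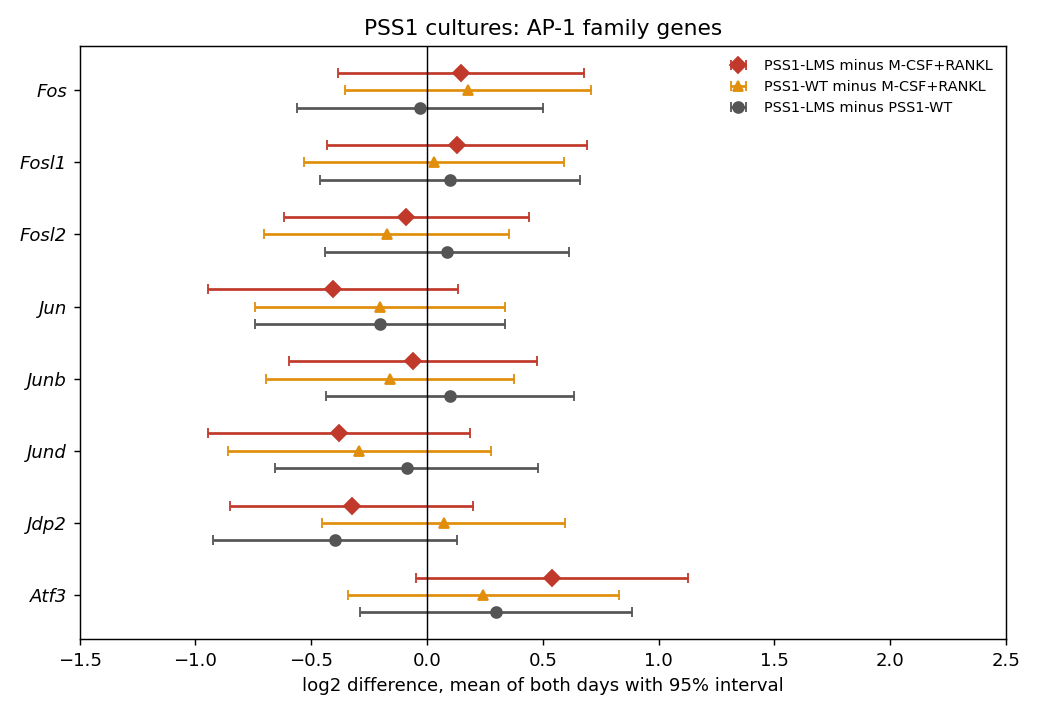
Log2 difference (horizontal axis, mean of both days with its 95% limma interval) of PSS1-LMS and PSS1-WT against M-CSF+RANKL and of PSS1-LMS against PSS1-WT for the 8 measured AP-1 genes. Every interval includes 0, and the estimate farthest from 0 is that of Atf3 with PSS1-LMS (0.54).

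Between days 6 and 3 the cultures with RANKL changed in 1 AP-1 gene. Fosl2 was 2.04-fold lower on day 6, by -1.25 with PSS1-LMS, -0.92 with PSS1-WT and -0.91 with M-CSF+RANKL. The mean over these 3 cultures was -1.03 ± 0.20 (limma SE, which draws on all tested genes, adjusted p = 0.0102 by limma). Over all genes 3.38% passed in this comparison, 1.31% higher and 2.07% lower on day 6. The Fosl2 call was lost without either PSS1-LMS array (-0.91) and with all 8 arrays (-0.72, adjusted p = 0.577 by limma). It was also lost with signals raised to the brightest background (adjusted p = 0.307 by limma). That setting left the Fosl2 difference at -1.03, its signals with RANKL lying over that level, and 0 of all genes passed under it. Nfatc1 also fell, 1.98-fold (-0.99 ± 0.20, adjusted p = 0.0117).

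Atf3 was higher on day 6 by 1.15 with PSS1-LMS, 1.07 with PSS1-WT and 0.22 with M-CSF+RANKL. Over these 3 cultures it differed by 0.81 ± 0.23 and did not pass (limma SE, adjusted p = 0.0620 by limma). It passed without either M-CSF+RANKL array (1.11, adjusted p = 0.00399), with the filter at the 75th percentile (0.0301) and with a variance trend (0.0466). It was 0.65 (adjusted p = 0.280) without either PSS1-LMS array, 0.69 (0.227) without either PSS1-WT array and 0.25 (0.844) with raised signals. Fosl1, at 0.56 ± 0.21, did not pass (adjusted p = 0.192), and Fos, Jun, Junb, Jund and Jdp2 had differences between -0.29 and 0.31. Of the related lists, the phosphatase gene Dusp1 (1.40) and Egr2, an immediate early gene (1.38), rose on day 6, and Map2k3 (-0.81) and Zfp36, whose product destabilises cytokine mRNAs (-0.78), fell.

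The M-CSF culture moved differently between the days. Jun was lower on day 6 by -2.63 in M-CSF, whereas it moved by -0.38 with PSS1-LMS, 0.17 with PSS1-WT and -0.03 with M-CSF+RANKL. The difference of these day differences, cultures with RANKL minus M-CSF, was 2.55 ± 0.41 (SE, adjusted p = 0.000561 by limma). In this test 5 of 8 members passed, 4 higher and 1 lower, against 22.3% of all genes, 9.49% higher and 12.8% lower. Its residual error comes from the 3 cultures with RANKL alone, since M-CSF had 1 array a day. To this limma added the variance of all tested genes.

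Fosl1 moved by 0.94, 0.15 and 0.57 with PSS1-LMS, PSS1-WT and M-CSF+RANKL and by -1.30 in M-CSF (difference 1.86 ± 0.43, SE, adjusted p = 0.00616). Jdp2 moved by -0.11, -0.29 and -0.46 in these cultures and by -1.77 in M-CSF (1.48 ± 0.40, adjusted p = 0.0158), where the day 6 signal was within background. Fos passed narrowly (1.18 ± 0.41, adjusted p = 0.0492) and did not pass without a filter on low values (0.0928) or with any array with RANKL left out (adjusted p up to 0.0644). Fosl2 passed in the other direction (-1.24 ± 0.40, adjusted p = 0.0386). It did not pass with quantile normalisation (adjusted p = 0.076 by limma), without a filter on low values (0.074) or without either PSS1-LMS array (-1.13). The M-CSF signal was within background on day 6 for Fos and Fosl1 and on both days for Fosl2. Junb (0.40), Jund (-0.03) and Atf3 (0.02) did not pass. With signals raised to the brightest background none of the 5 passed. Jun, whose signals all lay over that level, stayed at 2.55 (adjusted p = 0.0696 by limma), and Jdp2 turned sign to -0.10.

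Of the related lists, 1 of 16 leucine zipper factors had a higher and 3 a lower day difference with RANKL than in M-CSF. The same difference was higher for 3 of 8 phosphatases and lower for 2 of 18 signalling genes around RANK and AP-1. Of 13 immediate early genes 1 was higher and 2 lower, and of 13 osteoclast genes 2 were higher and 4 lower. These counts stand beside 22.3% of all measured genes, 9.49% higher and 12.8% lower. Myc, an immediate early gene, moved by -0.16 on average with RANKL and by -4.28 in M-CSF (difference 4.12 ± 0.45, adjusted p = 2.33e-05). Nfatc1 moved by -0.99 with RANKL and by 1.82 in M-CSF (-2.81 ± 0.40, adjusted p = 0.000199). Dusp1 differed by 1.55. Marker sums also differed by day. Those of neutrophil markers were 7.41 on day 6 and 14.10 on day 3 in M-CSF, against 7.09 to 7.50 and 14.15 to 14.67 with RANKL. Monocyte sums were lower on day 6 than on day 3 in all cultures. Macrophage sums in M-CSF were 20.06 on day 6 and 18.41 on day 3, against 16.56 to 16.67 and 16.74 to 16.91 with RANKL. The part of these markers in the day differences was not tested.

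**Figure D5:**
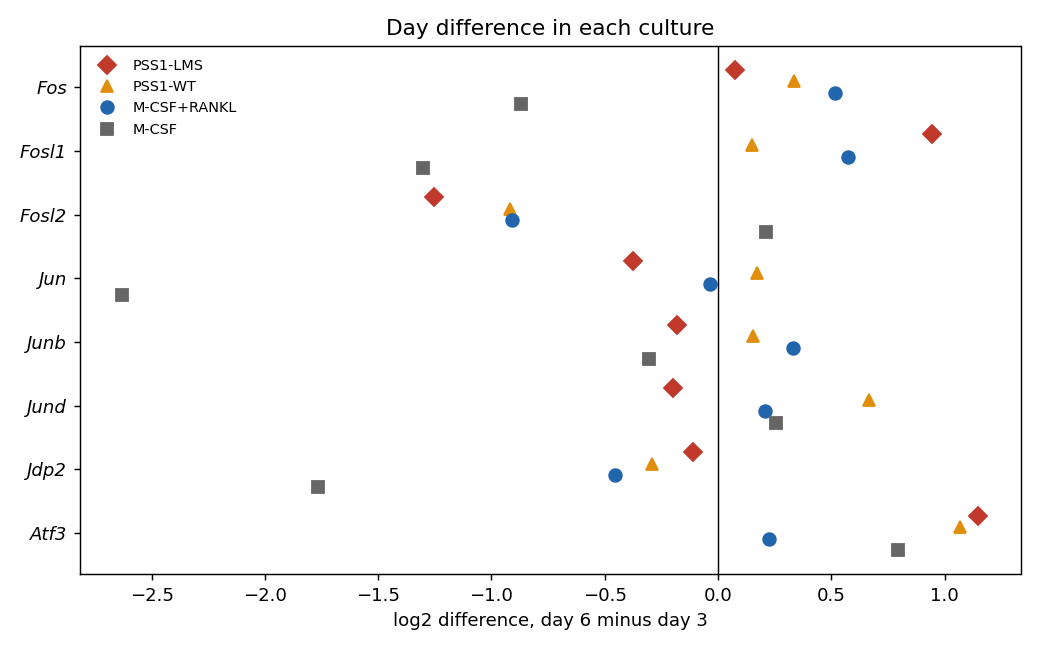
Log2 difference of day 6 minus day 3 (horizontal axis) for the 8 measured AP-1 genes in each of the 4 cultures, 1 point per culture, each from 1 array per day. The M-CSF point lies apart from the 3 cultures with RANKL for Jun (-2.63), Jdp2 (-1.77), Fosl1 (-1.30) and Fos (-0.87), where it is lower, and for Fosl2 (0.21), where it is higher.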

How the data were processed

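Cultures were measured on Affymetrix arrays with biotinylated cDNA from 500 ng of total RNA, per the labels. The authors deposited log2 signals for 28846 features; their summarisation and normalisation are not stated in any source used here. That they are log2 follows from their range, 1.25 to 19.93, the highest value on 5 of the 8 arrays. Array medians lay between 4.80 and 4.93, and no further normalisation was applied. The 23 background probe sets reached 5.54 to 7.13, depending on the array. GEO's platform annotation gave 1 symbol to 19572 clusters, or 19505 genes; for 55 genes with several clusters the one with the highest mean was taken, which concerned no AP-1 gene. Genes whose highest value reached 4.86, the 50th percentile, were tested (10871).

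Fits used limma 3.58.1 in R 4.3.3 (lmFit, eBayes) with additive culture and day. The RANKL difference used 8 arrays (3 residual degrees of freedom), and the PSS1 and day comparisons the 6 with RANKL (2). The difference of day differences added a day by RANKL term (2). Each SE is limma's, in which the variance of a gene is drawn toward that of all tested genes. This prior had 4.711 degrees of freedom for the RANKL difference and 13.31 for the other comparisons, more than the residual ones. P-values were adjusted by Benjamini-Hochberg over the tested genes at 0.05. With 1 array per culture and day, p-values do not cover the spread between separate cultures or mice, and precision is limited by the 8 arrays. The code of the fits was run on simulated data with known effects and independent noise. Such data hold no spread between separate cultures, so they do not test the p-values for it. Members and lists were chosen with earlier results of these data known. All 10 members are named; of other lists, up to 4 per comparison with the largest difference among those past the threshold, plus Nfatc1 and Ptdss1; further members of those lists were named after their values were seen. Correlations used all 8 arrays. Alternatives changed the normalisation, filter, low signals, variance model, clusters and arrays.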

Additional observations from a re-analysis of the deposited data

Results flagged for a closer look

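Day differences (day 6 minus day 3) that were not alike in the cultures with RANKL and in the M-CSF culture were found by a limma interaction term for 5 AP-1 genes. The difference, cultures with RANKL minus M-CSF, was 2.55 for Jun, 1.86 for Fosl1, 1.48 for Jdp2, 1.18 for Fos and -1.24 for Fosl2. Of these 5, only Jun had M-CSF signals over background on both days. With signals raised to the brightest background the Jdp2 difference turned sign, to -0.10. The M-CSF side rests on 1 array per day, and no array of it could be left out of this test.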

How the results depend on the processing

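Under the alternatives run, the RANKL calls of Fos, Fosl2, Jdp2 and Atf3 kept their direction and passed throughout. No paired analysis was possible because each group is 1 array and replicate numbers pair nothing; culture and day were terms of the fits instead. The RANKL difference had 3 to 6 members higher and 1 to 2 lower when 1 array was left out (all genes 1198 to 4545, lowest without M-CSF+RANKL of day 6 and highest without M-CSF of day 3), with Fosl1 between -1.25 and 0.61 and Jun between -0.35 and 2.20. Fits without an M-CSF array rest on a single one, so their error holds no change of the RANKL difference between days. Their counts cannot be set beside the main one. With signals raised to the brightest background, the RANKL difference had 1136 genes, against 2875. Raising also changed the adjusted p-values of genes whose own signals it left unchanged, such as Jund. A call lost under it thus need not rest on low signals of that gene. For PSS1-WT, all-gene calls, 1 in the main analysis, came to 2 with the filter at the 75th percentile or a variance trend, 0 with raised signals and 3 to 61 with 1 array left out. For PSS1-LMS, 19 calls became 1 with quantile normalisation, 2 without a filter, 40 with the 75th percentile, 0 with raised signals, 48 with a variance trend, 1 with all 8 arrays and 11 to 83 with 1 array left out. For PSS1-LMS against PSS1-WT the 0 calls became 8 with the 75th percentile, 7 with a variance trend and 0 to 48 with 1 array left out. AP-1 genes passed in none of these PSS1 settings, but small differences turned sign. With 1 array left out, PSS1-WT ranged from -0.20 to 0.69 for Atf3, -0.27 to 0.33 for Fosl1 (-0.091 with raised signals), -0.055 to 0.20 for Jdp2, -0.33 to 0.013 for Junb and -0.62 to 0.038 for Jund. PSS1-LMS ranged from -0.030 to 0.33 for Fos, -0.16 to 0.42 for Fosl1, -0.26 to 0.082 for Fosl2 and -0.27 to 0.15 for Junb. PSS1-LMS against PSS1-WT ranged from -0.21 to 0.15 for Fos, -0.21 to 0.40 for Fosl1, -0.086 to 0.26 for Fosl2, -0.43 to 0.020 for Jun, -0.11 to 0.31 for Junb and -0.42 to 0.24 for Jund. Between days in cultures with RANKL, 1 member (Atf3) was higher with the 75th percentile or a variance trend, and 0 members were lower with raised signals or all 8 arrays. All-gene calls, 367 in the main analysis, were 230 without a filter, 0 with raised signals, 31 with all 8 arrays and 270 to 678 with 1 array left out, where 0 to 1 members were higher and 0 to 1 lower, Jun lay between -0.20 and 0.070 and Junb between -0.013 and 0.24. Of these calls 142 were higher and 225 lower (38.7% higher), against 128 and 123 (51.0%) with quantile normalisation. For the difference of day differences, 0 members were lower with quantile normalisation, without a filter or with raised signals, and 0 higher with raised signals, where 1074 genes passed, against 2425. With raised signals Jdp2 was -0.10 and Atf3 -0.55, and Jund was 0.028 with median centring and 0.082 with quantile normalisation. With 1 array left out, 0 to 1 members were lower, Atf3 lay between -0.15 and 0.31 and Jund between -0.25 and 0.18. Leaving out either M-CSF array could not be fitted here. The causes of these changes were not tested. Signals within background bound the folds of Fos, Fosl2 and Jdp2.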
